A study of Arabidopsis thaliana with 2 samples.

Results

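The nuclear genes for the light-harvesting antenna, photosystem I, photosystem II and the small subunit of Rubisco were examined for MBD9 occupancy, 45 genes of the 27444 protein-coding genes on the 5 nuclear chromosomes of *Arabidopsis thaliana*. They comprise 14 *LHCB* genes (photosystem II antenna), 6 *LHCA* genes (photosystem I antenna), 12 photosystem I subunit genes, 9 photosystem II subunit genes and 4 *RBCS* genes. The genes were named by locus from their function. However, the set was selected on these data, after many summits inside photosystem, antenna and Rubisco genes had been seen, so the counts below are a description and carry no test. MBD9 carries a methyl-CpG-binding domain and associates with the SWR1 complex, the remodeler that deposits the histone variant H2A.Z. Chromatin was immunoprecipitated with an anti-FLAG antibody (F1804) from Col-0 seedlings 13 days after germination. The plants were a T4 *pMBD9:MBD9-3xFLAG* line in the *mbd9-3* mutant background, in which a tagged genomic *MBD9* fragment is expressed from its own promoter and complements the mutant, and untagged wild type. There was 1 library of each, so no value has a replicate check. The wild-type library served as the control in peak calling and was not analysed on its own here.

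The data are peak summits, each a single base with a score, the -log10 of its q value against wild type. The list held 13993 summits in 10348 peaks, with a median score of 10.1. No read numbers come with the list, so depth is unknown. Summits at a q value above 0.01 would not be in it, and a gene without a summit may still carry weaker signal. A summit was counted as upstream within 1 kb 5′ of the transcription start site (TSS), as in the gene between the annotated gene ends, and as 3′ within 500 bp past the gene end. Coordinates are those of TAIR10, with gene models from RefSeq TAIR10.1.

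In photosynthesis, chlorophyll-binding antenna proteins collect light and pass its energy to the reaction centers of photosystem II and photosystem I. Photosystem II splits water, and photosystem I passes electrons to ferredoxin. Rubisco fixes CO2. The proteins examined here are encoded in the nucleus, made in the cytosol and imported into the chloroplast, and their genes are known to be transcribed strongly in green tissue and to be induced by light.

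The sequences at some of the summits upstream of these genes and inside them are shown first. Each is 101 bases long, centered on the summit and written 5′ to 3′ on the strand of the gene. Of the 8 upstream summits 4 are printed, among them all 3 with the G-box CACGTG within 50 bp, so they do not stand for the 8. Capitals mark the G-box, the I-box GATAAG (or its reverse complement) and the CCAAT box (or its reverse complement). The 4 summits lay at -888 bp from the TSS of *PSAH1* (score 66.5), -97 bp at *PSBQ2* (score 9.38), -119 bp at *RBCS2B* (score 18.4) and -234 bp at *LHCA2* (score 23.6).
PSAH1, chr3:5470432-5470532, minus strand: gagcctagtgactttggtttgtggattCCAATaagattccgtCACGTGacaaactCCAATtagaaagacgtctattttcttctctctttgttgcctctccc
PSBQ2, chr4:2673290-2673390, minus strand: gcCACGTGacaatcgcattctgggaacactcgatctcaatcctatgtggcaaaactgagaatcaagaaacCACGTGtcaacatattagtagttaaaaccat
RBCS2B, chr5:15382140-15382240, minus strand: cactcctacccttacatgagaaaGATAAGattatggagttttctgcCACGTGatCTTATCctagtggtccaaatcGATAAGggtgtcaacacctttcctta
LHCA2, chr3:22745230-22745330, plus strand: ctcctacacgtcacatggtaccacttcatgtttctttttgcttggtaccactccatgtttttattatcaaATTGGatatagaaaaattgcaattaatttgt
For summits in coding sequence, capitals mark the codon that holds the summit. They are given for pairs of close relatives, in which the summits lay near each other in the aligned coding sequences, and for *PSBY*, which had the highest score of a summit inside a photosystem II subunit gene.
PSAD1, chr4:1229483-1229583, minus strand: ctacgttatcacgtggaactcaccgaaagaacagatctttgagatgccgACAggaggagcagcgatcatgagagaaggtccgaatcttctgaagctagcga
PSAD2, chr1:753720-753820, minus strand: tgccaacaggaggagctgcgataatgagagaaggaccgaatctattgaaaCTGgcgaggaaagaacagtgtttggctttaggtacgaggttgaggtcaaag
LHCB1.5, chr2:14523318-14523418, minus strand: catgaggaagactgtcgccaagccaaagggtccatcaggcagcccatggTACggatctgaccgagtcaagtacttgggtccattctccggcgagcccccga
LHCB1.3, chr1:10478207-10478307, plus strand: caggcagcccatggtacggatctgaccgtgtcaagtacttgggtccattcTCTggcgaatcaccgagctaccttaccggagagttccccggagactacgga
LHCB4.1, chr5:209395-209495, plus strand: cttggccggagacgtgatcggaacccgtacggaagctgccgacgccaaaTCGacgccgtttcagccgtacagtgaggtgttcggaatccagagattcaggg
LHCB4.2, chr3:2717995-2718095, plus strand: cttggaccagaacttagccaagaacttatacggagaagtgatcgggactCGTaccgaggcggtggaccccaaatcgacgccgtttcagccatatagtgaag
PSBY, chr1:25394584-25394684, minus strand: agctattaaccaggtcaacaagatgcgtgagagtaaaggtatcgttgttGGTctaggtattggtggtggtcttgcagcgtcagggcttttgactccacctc

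A summit lay inside the gene at 37 of the 45 genes (82.2%), compared with 13.6% of all protein-coding genes. Of the 45, 12 genes had 1 summit inside, 16 had 2, 8 had 3 and *PSBO1* had 4. At least 2 summits were thus found inside 25 genes (55.6%), against 5.08% of all protein-coding genes, and at least 3 inside 9 genes (20.0%), against 2.19%. In contrast, only 7 genes (15.6%) had a summit within 1 kb upstream, close to the 17.3% of all protein-coding genes. A summit within 500 bp 3′ was found at 10 genes (22.2%), against 7.76%. That count was 4 (8.89%, against 5.65%) without summits inside another protein-coding gene. Of those 4 genes, only *PSAF* had a 3′ summit outside the 1 kb upstream of every other annotated gene. With summits that reached the median score of the list, the count was 2 (4.44%, against 3.87%). The shares of the 5 groups are plotted beside those of all protein-coding genes.

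**Figure D1:**
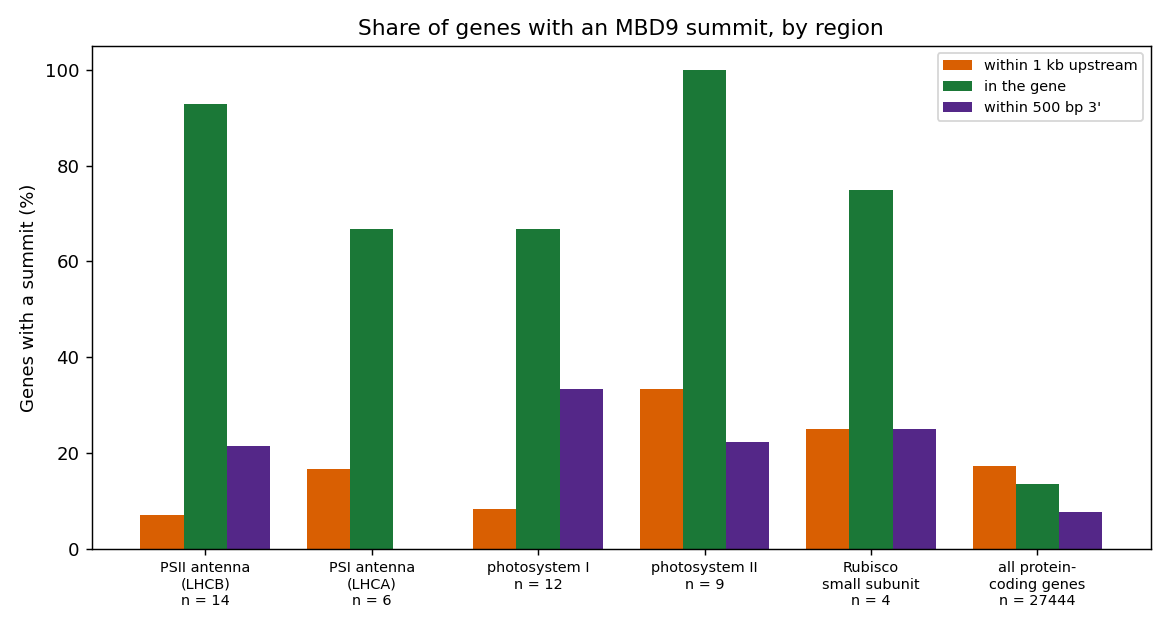
Percentage of genes with at least 1 MBD9 summit within 1 kb upstream of the TSS, in the gene and within 500 bp 3′ of it (y axis), for the 5 groups of genes and for all 27444 protein-coding genes (x axis, with the number of genes). Summits inside the gene were found at 66.7% to 100% of the genes of each group, against 13.6% of all protein-coding genes.

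The 45 genes held 72 summits in 63.2 kb of gene, or 1.14 per kb. An exact 95% Poisson interval was 0.892 to 1.44 and covers counting error only. It treats the summits as independent, although several belonged to the same peak, so it can be too narrow. All protein-coding genes held 0.0951 per kb. The 45 genes are short, 720 to 2154 bp long with a median of 1404 bp, whereas the median over all protein-coding genes was 2078 bp. Among the 11984 protein-coding genes within that range of lengths, 12.5% had a summit inside and the density was 0.138 per kb. Of the 37 genes with a summit inside, 31 (83.8%) had none upstream, compared with 64.3% of the 3743 protein-coding genes with a summit inside. The 72 summits belonged to 51 peaks, and at 12 genes with 2 or more summits inside, all were of 1 peak. With only the highest summit of each peak counted, 12 genes had at least 2 inside (26.7%), against 2.18% of all protein-coding genes, and the density was 0.744 per kb, against 0.0617. These comparisons were not tested, as the genes were chosen with such counts known.

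**Figure D2:**
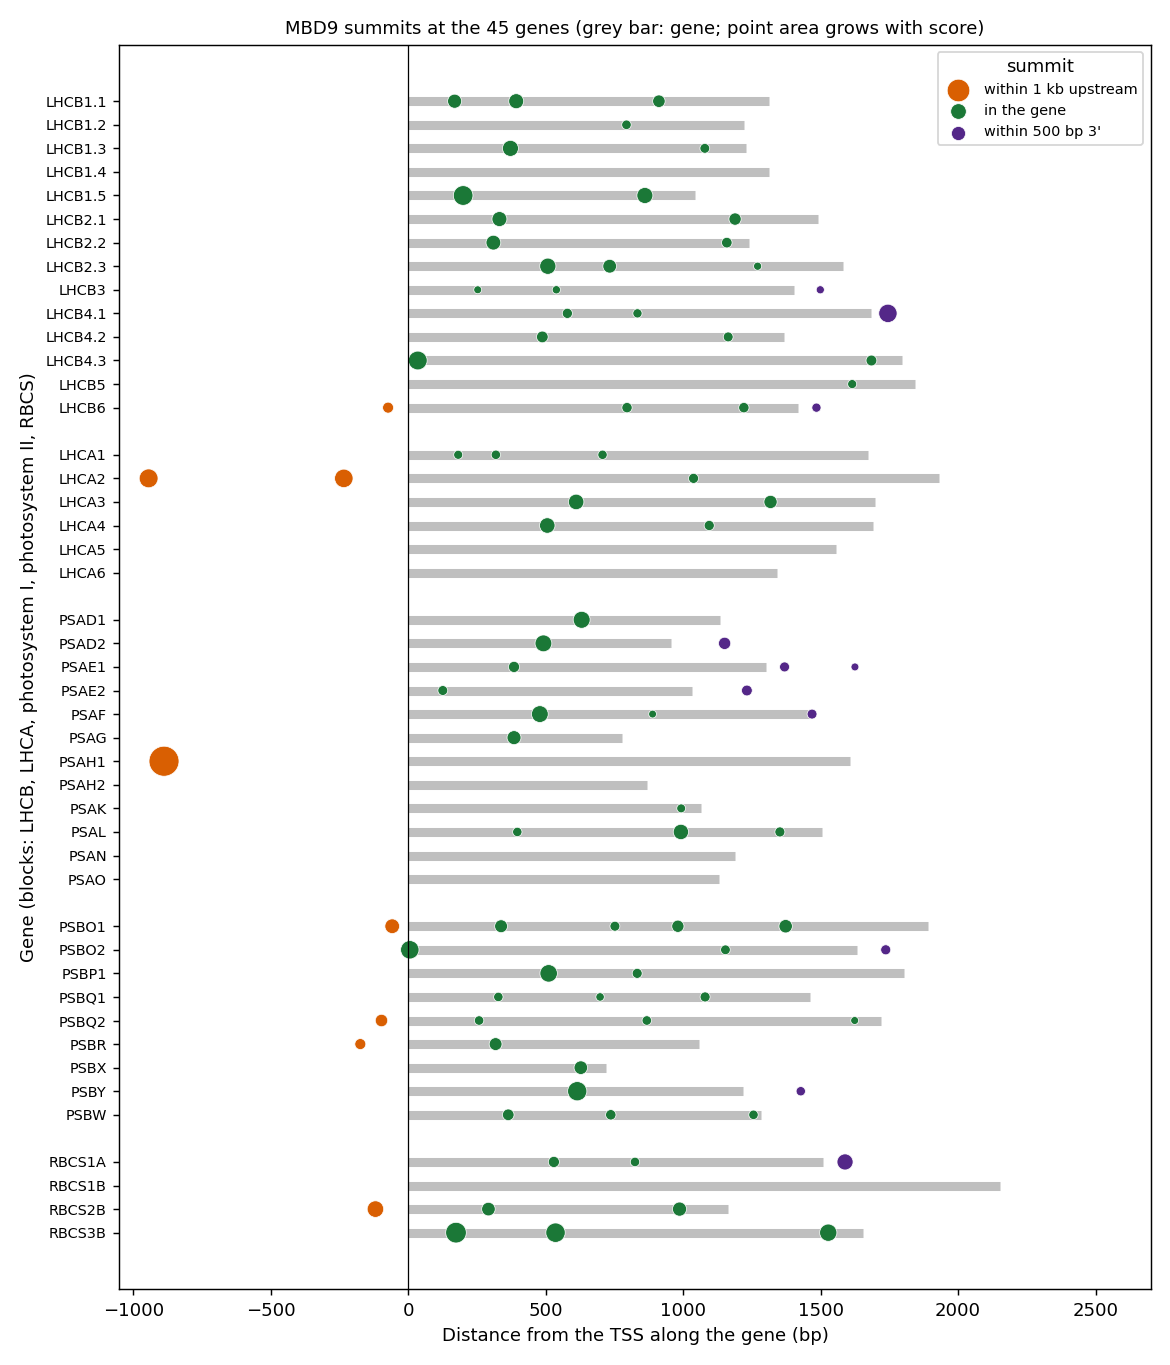
Position of each MBD9 summit at the 45 genes, as the distance from the TSS in bp (x axis). Each row is 1 gene, drawn as a grey bar from TSS to gene end, and the area of a point grows with the score. Points inside the bars are found at 37 genes and points left of the TSS at 7.

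The LHCB proteins form the antenna of photosystem II. LHCB1, LHCB2 and LHCB3 make up the trimers of LHCII, the most abundant light-harvesting complex, and LHCB4, LHCB5 and LHCB6 are monomers that link the trimers to the core. A summit lay inside 13 of the 14 *LHCB* genes, with 26 summits in all and 2 or more at 11 genes. Only *LHCB6* had a summit upstream. Scores of the summits inside ranged from 2.28 to 27.0, with a median of 7.19.

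*LHCB1.1* (AT1G29920, *CAB2*), *LHCB1.2* (AT1G29910, *CAB3*) and *LHCB1.3* (AT1G29930, *CAB1*) lie next to each other on chromosome 1, between 10472280 and 10479114. *LHCB1.1* had summits at 169, 393 and 912 bp past the TSS with scores of 12.6, 14.7 and 9.45. *LHCB1.3* had them at 372 bp (score 17.1) and 1079 bp (score 4.81), and *LHCB1.2* had a single one at 794 bp (score 4.42). The intervals between these 3 genes held no summit. *LHCB1.5* (AT2G34420, chromosome 2, 14522524 to 14523568, minus strand) had the highest score inside an *LHCB* gene, 27.0 at 200 bp, and a second summit of 17.1 at 861 bp. Both also lay within the annotated lncRNA gene AT2G08665. Its neighbor *LHCB1.4* (AT2G34430), transcribed in the opposite direction, was the only *LHCB* gene without a summit in any of the 3 regions.

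*LHCB2.1* (AT2G05100) and *LHCB2.2* (AT2G05070) resembled each other in distance from the TSS. Summits lay at 332 and 1189 bp in the first and at 310 and 1159 bp in the second. The 5′ summits of both fell in an intron and scored 14.6 and 14.2. The other summit fell in a coding exon of *LHCB2.1* (score 9.03) but in the 3′ UTR of *LHCB2.2* (score 6.02). *LHCB2.3* (AT3G27690) had summits at 508, 733 and 1271 bp, with scores of 17.6, 11.9 and 2.53, the last of which also lay in the overlapping gene AT3G27700. At *LHCB3* (AT5G54270), scores were low throughout, 2.28 and 2.74 inside the gene and 2.53 at 96 bp past its end.

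*LHCB4.1* (AT5G01530) had 2 summits inside with scores of 5.42 and 3.98, whereas a stronger one, 23.2, lay 63 bp past the gene end. *LHCB4.2* (AT3G08940) had scores of 7.93 and 4.94 at 488 and 1164 bp. *LHCB4.3* (AT2G40100) differed in position from its relatives, with a summit of 24.5 only 35 bp past the TSS and another of 6.45 close to the 3′ end, at 1685 bp. *LHCB5* (AT4G10340) had 1 summit, at 1615 bp (score 3.75), in the 3′ UTR. *LHCB6* (AT1G15820) had summits at -73, 796 and 1221 bp and 67 bp past its end, with scores from 3.94 to 6.71. Its upstream region is shared with the divergent gene AT1G15830.

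The LHCA proteins form the belt of antenna around photosystem I. *LHCA1* (AT3G54890) had 3 summits inside, with scores of 3.71 to 4.23. *LHCA3* (AT1G61520) and *LHCA4* (AT3G47470) had 2 each, the first of which fell in an intron and scored 15.9 at 611 bp and 15.8 at 506 bp. *LHCA2* (AT3G61470, chromosome 3, 22745514 to 22747444, plus strand) showed the reverse order of scores, with 24.7 at -944 bp and 23.6 at -234 bp upstream and 5.25 at 1038 bp inside. *LHCA5* (AT1G45474) and *LHCA6* (AT1G19150) had no summit in any region. Their proteins are known as minor antenna subunits that attach the NDH complex to photosystem I, and both genes are uniquely mappable throughout.

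Of the 12 photosystem I subunit genes, 8 had a summit inside, but only *PSAF* and *PSAL* had more than 1. PSAD and PSAE line the stromal side where ferredoxin docks. *PSAD1* (AT4G02770, chromosome 4, 1229031 to 1230164, minus strand) had a summit of 19.5 at 631 bp. That summit also lay within 1 kb upstream of another protein-coding gene, AT4G02760. *PSAD2* (AT1G03130, chromosome 1, 753307 to 754262, minus strand) had 1 of 19.1 at 492 bp. *PSAE1* (AT4G28750) and *PSAE2* (AT2G20260) had lower scores inside, 7.0 and 4.93, and the *PSAE1* summit also lay inside the overlapping gene AT4G28755. Further summits lay 3′ of *PSAD2*, *PSAE1* and *PSAE2*, all within the next protein-coding gene.

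PSAF binds plastocyanin on the lumenal side, and *PSAF* (AT1G31330) had summits of 19.0 at 479 bp and 2.16 at 889 bp, with another of 4.94 at 4 bp past the gene end. *PSAG* (AT1G55670) and *PSAK* (AT1G30380), whose products sit beside the LHCA belt, had scores of 12.4 at 385 bp and 3.49 at 993 bp. The *PSAG* summit also lay inside the overlapping gene AT1G55673. PSAH, PSAL and PSAO form the side at which LHCII docks. Of these, *PSAL* (AT4G12800) had summits at 397, 992 and 1352 bp with scores of 4.18, 15.5 and 5.18. *PSAH2* (AT1G52230) and *PSAO* (AT1G08380) had none in any region, and neither had *PSAN* (AT5G64040). *PSAH1* (AT3G16140, chromosome 3, 5467987 to 5469594, minus strand) was the only gene of the 45 with a summit upstream and none inside. That summit, at -888 bp with a score of 66.5, was the strongest of the 91 counted at the 45 genes.

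All 9 photosystem II subunit genes had a summit inside, 20 in all, with scores from 2.28 to 25.8 and a median of 5.46. PSBO, PSBP and PSBQ are the extrinsic proteins of the oxygen-evolving complex. *PSBO1* (AT5G66570, chromosome 5, 26568572 to 26570461, plus strand) had summits at 338, 752, 981 and 1373 bp, all in coding exons and with scores of 10.2, 4.98, 8.93 and 11.3, and a further one at -58 bp (score 14.0). All 5 were summits of a single peak. *PSBO2* (AT3G50820) had a summit of 23.4 only 6 bp past the TSS and weaker ones at 1154 bp (score 4.68) and 103 bp past the gene end (score 5.20). *PSBP1* (AT1G06680) had scores of 20.8 at 511 bp and 5.14 at 833 bp. *PSBQ1* (AT4G21280) and *PSBQ2* (AT4G05180) had 3 summits inside each, with no score above 5.16.

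Among the remaining photosystem II genes, *PSBR* (AT1G79040) had a summit of 10.1 in an intron at 318 bp and 1 of 6.75 at -174 bp. PSBX, PSBY and PSBW are small membrane proteins of the complex. *PSBX* (AT2G06520), the shortest of the 45 genes, had a summit of 11.6 at 628 bp. *PSBY* (AT1G67740) had 25.8 at 615 bp, near the middle of the gene, and *PSBW* (AT2G30570) had summits of 7.86, 5.77 and 4.33 spread from 364 to 1256 bp.

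Of the *RBCS* genes, which encode the small subunit of Rubisco, 3 of 4 had a summit inside, with a median score of 12.8 over 7 summits. The highest score inside any of the 45 genes, 30.1, was at *RBCS3B* (AT5G38410, chromosome 5, 15376988 to 15378642, minus strand) at 174 bp, within the annotated gene but outside the transcript used for exons, followed by 26.3 at 536 bp and 20.3 at 1528 bp. *RBCS2B* (AT5G38420) had 11.6 at 292 bp and 12.8 at 987 bp, beside the upstream summit of 18.4. *RBCS1B* (AT5G38430), which completes this tandem cluster, had none in any region, but its upstream region has only 66.3% unique 50-mers (stretches of 50 bases that occur once in the nuclear genome). The summit upstream of *RBCS2B* lay 977 bp past the end of *RBCS1B* and so outside its 3′ window. *RBCS1A* (AT1G67090) had 6.97 at 530 bp, 4.27 at 825 bp and a stronger summit, 17.3, at 80 bp past the gene end. The stronger one also lay within 1 kb upstream of another protein-coding gene, AT1G67080.

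To determine where along the gene these summits lie, positions were scaled to gene length. With each gene divided into 3 parts of equal length, the 5′, middle and 3′ parts of the 45 genes held 26, 25 and 21 summits (36.1%, 34.7% and 29.2%). Over all protein-coding genes, the 5′ part held 46.3% and the middle and 3′ parts 26.9% each, of 6227 summits with those in overlapping genes counted for each gene. Among protein-coding genes within the same range of lengths these shares were 37.6%, 32.5% and 30.0%, near those of the 45 genes. The first 10% of the gene held 2 of the 72 summits (2.78%), those of *LHCB4.3* and *PSBO2*, against 16.4% within the same length range and 24.8% over all protein-coding genes. As a density, however, this stretch of the 45 genes held 0.317 summits per kb, against 0.227 within the same length range and 0.236 over all protein-coding genes. The value of 0.317 rests on 2 summits, too few to rank it against other genes. The rest of the 45 genes, in steps of 10%, held 0.792 to 1.74 per kb. Distances of the 72 summits from the TSS had a median of 664.5 bp. Where a gene had several, neighboring summits were 137 to 1650 bp apart with a median of 425 bp over 35 gaps, compared with 477 bp over 2484 gaps in all protein-coding genes.

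**Figure D3:**
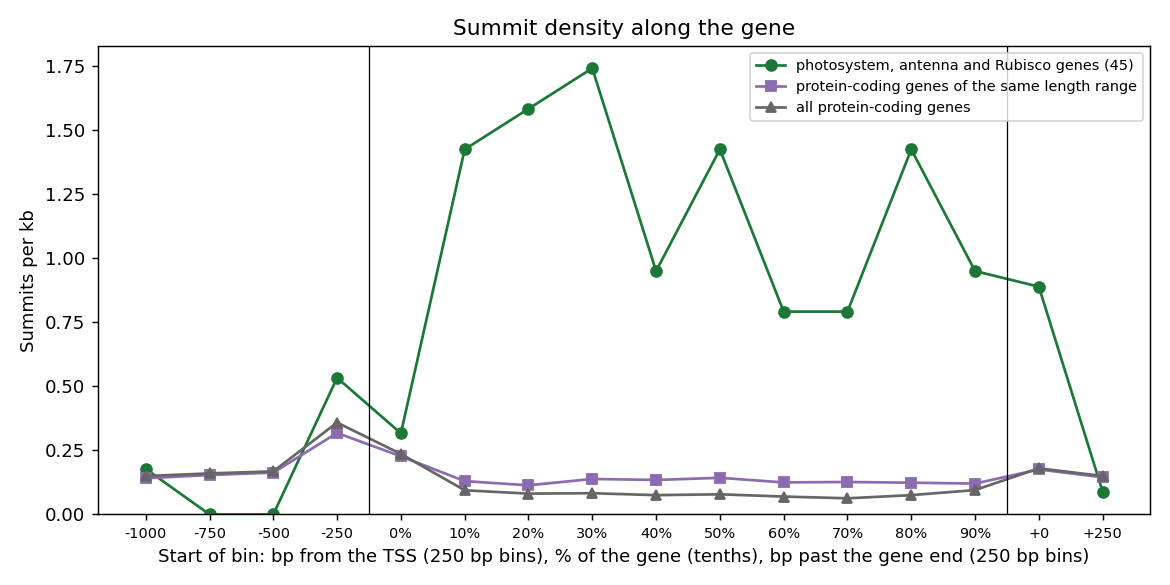
Summits per kb (y axis) in 250 bp bins upstream of the TSS, in bins of 10% of gene length and in 250 bp bins past the gene end (x axis), for the 45 genes, for protein-coding genes of the same length range and for all protein-coding genes. After the first 10% of the gene, the 45 genes held 0.792 to 1.74 summits per kb, and all protein-coding genes 0.0629 to 0.0950.

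By annotation, 38 of the 72 summits (52.8%) fell in coding exons, 13 in introns, 15 in 3′ UTRs and 4 in 5′ UTRs, with 2 outside the transcript used. Coding exons make up 48.7% of the bases of these genes, introns 17.4%, 3′ UTRs 18.4% and 5′ UTRs 12.2%, so summits were spread much as the bases are, except for 5.56% in 5′ UTRs. In protein-coding genes of the same length range, 53.0% of summits inside fell in coding exons, near the share in the 45 genes, 7.13% in introns, 16.5% in 3′ UTRs and 21.1% in 5′ UTRs. Over all protein-coding genes, 41.2% fell in coding exons and 24.3% in 5′ UTRs. These are shares of the summits inside each set and not densities. GC content within 50 bp of the summits averaged 44.0% ± 9.88 in the 45 genes (SD over 72 summits). It was 42.7% ± 9.03 over 2438 summits inside genes of the same length range and 41.0% ± 8.69 over the 6092 summits inside any protein-coding gene. The genes themselves averaged 42.0% ± 3.26 (SD, n = 45 genes), 39.1% ± 3.41 (SD, same length range) and 38.9% ± 3.30 (SD over all protein-coding genes).

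The summits inside the 45 genes were about as strong as those inside other genes. Their scores ranged from 2.16 to 30.1 with a median of 6.98 and quartiles of 4.42 and 14.6, and summits inside all protein-coding genes had a median of 7.68 with quartiles of 4.34 and 15.1. The median score of the whole list was reached or passed by 29 of the 72, at 21 genes (46.7%). With that limit, 6.74% of all protein-coding genes had a summit inside. Upstream of the 45 genes the median was 16.2 over 8 summits, against 11.3 upstream of all protein-coding genes, and 3′ of them it was 5.09 over 11 summits, against 9.75. Just outside the windows, a summit lay 1239 bp upstream of *LHCB1.4*, which is the one in *LHCB1.5*, and others lay 584 to 977 bp past the ends of *LHCB2.1* (score 21.7), *LHCA1* (17.0), *PSAH2* (4.87), *RBCS1A* (8.18) and *RBCS1B* (18.4).

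Some summits cannot be assigned to these genes alone. Of the 72 inside, 7 also lay within 1 kb upstream of another protein-coding gene and 5 inside another annotated gene. Without those upstream of another protein-coding gene, 34 of 45 genes had a summit inside. *PSAD1*, *PSAE2* and *PSBQ1* were the genes that then had none. Of the 11 summits 3′ of the genes, 7 lay inside the next protein-coding gene. Those of *RBCS1A* and *PSBO2* lay within 1 kb upstream of another protein-coding gene, and that of *LHCB4.1* within 1 kb upstream of a lncRNA gene.

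Several of the genes have close copies, and only uniquely mapping reads were kept by the authors. The share of unique 50-mers was at least 90% in 34 of the 45 genes, of which 28 had a summit inside. It was lowest, 75.1% to 89.8%, in the 5 *LHCB1* genes, *LHCB2.1*, *LHCB2.2*, *LHCA2* and the 3 tandem *RBCS* genes. Their coding sequences were 86.7% to 96.4% identical among *LHCB1* genes and 94.1% to 97.3% among the tandem *RBCS* genes. *LHCB1.4* and *RBCS1B*, the members of these clusters without a summit, had 86.8% and 85.8% unique 50-mers, within the range of their neighbors with summits. The part of mappability in these differences was not tested. Within 100 bp of the summit, all 50-mers were unique at 65 of the 72.

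Positions of summits were then compared between relatives by alignment of their coding sequences. The *PSAD1* and *PSAD2* coding sequences are 86.3% identical, and the base that aligns with the *PSAD1* summit lay 44 bp from the *PSAD2* summit. The distance was 24 bp for *LHCB4.1* and *LHCB4.2* (81.1% identical) and 35 bp for *LHCB1.3* and *LHCB1.5* (89.3% identical). Over the 6 pairs among the *LHCB1* genes other than *LHCB1.4*, which has no summit, it ranged from 35 to 446 bp. Other pairs gave 70 bp for *PSBQ1* and *PSBQ2*, 141 bp for *PSAE1* and *PSAE2* and 139 to 486 bp for *PSBO1* and *PSBO2*. Summits in introns and UTRs have no place in this alignment.

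The promoters were searched for 7 short sequences, on both strands, from 250 bp before to 50 bp after the TSS. The G-box CACGTG, bound by bZIP and bHLH factors, was found at 15 of the 45 genes (33.3%) and at 7.68% of all protein-coding genes. By group, it was found at 6 of 9 photosystem II genes, 4 of 12 photosystem I genes, 3 of 14 *LHCB* genes, 1 of 6 *LHCA* genes and 1 of 4 *RBCS* genes. The I-box GATAAG was at 19 genes (42.2% against 14.6%), 8 of them photosystem I genes. CCAATC, a sequence recognized by the GLK factors, was at 15 genes (33.3% against 12.3%), 8 of them *LHCB* genes. CCAAT, which it contains, was at 33 genes (73.3% against 51.6%) and at all 14 *LHCB* genes. The GT-1 site GGTTAA (22.2% against 16.7%), TATAAA (51.1% against 52.1%) and the site II element TGGGCC (11.1% against 15.5%) were nearer to the shares of all protein-coding genes.

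Of the 7 genes with an upstream summit, 6 had a G-box in this promoter window, although only 3 of the 8 upstream summits had it within 50 bp. Over all 5099 summits upstream of protein-coding genes, 11.0% had a G-box within 50 bp. For the 6 of 7, the matching share over all protein-coding genes with an upstream summit was not counted, so no link can be read from it. Of the 37 genes with a summit inside, 13 had a G-box in the promoter window. The windows printed above show 1 G-box at *PSAH1*, 2 at *PSBQ2* and, at *RBCS2B*, 1 together with 3 I-boxes. Inside the genes the G-box was rare, within 50 bp of 2 of the 72 summits (2.78%), against 6.19% of summits inside all protein-coding genes. These were the summits of *PSAD1* and *PSBO2*. CCAATC was near 3 of the 72 (4.17% against 5.52%) and the I-box also near 3 (4.17% against 5.45%). A match is a string of letters and not a site shown to be bound.

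Other genes of photosynthesis were counted in the same way, from lists by pathway. Of 12 genes for electron transport and the chloroplast ATP synthase, 8 had a summit inside (66.7%, against 13.6% of all protein-coding genes). None had one upstream, against 17.3% of all protein-coding genes. Plastocyanin 2 (*DRT112*, AT1G20340), the copper protein that carries electrons to photosystem I, had 2 inside and the highest score of the list, 26.7. Ferredoxin 1 (*FD1*, AT1G10960) and *ATPC2* (AT1G15700) also had 2 inside, and ferredoxin 2 (*FED A*, AT1G60950) had 1 of 23.8. Of 18 genes of chlorophyll biosynthesis, 7 had a summit inside (38.9%, against 13.6% of all protein-coding genes). Among them was *HEMA1* (AT1G58290), which encodes the glutamyl-tRNA reductase at the start of the pathway. *HEMA1* had 6 summits with scores of at most 6.16. The highest score of that list, 20.7, lay upstream of *CH1* (AT1G44446), the chlorophyll a oxygenase gene.

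Of 19 genes of the Calvin cycle, 4 had a summit inside (21.1%), against 13.6% of all protein-coding genes. No summit in any region was found at 14 of the 19, a share similar to the 19187 of the 27444 protein-coding genes. The 14 include Rubisco activase (*RCA*, AT2G39730), whose product keeps Rubisco active. *CP12-1* (AT2G47400), which encodes a small regulator of the cycle, had 2 inside, the most in this list, and the highest score of the list, 9.32, lay 3′ of *CP12-2* (AT3G62410). Calvin cycle genes are longer, with a median of 2441 bp, and held 0.111 summits per kb, compared with 0.656 for electron transport, 0.401 for chlorophyll biosynthesis and 1.14 for the 45 genes. Of 6 other photosystem-associated genes, 3 had a summit upstream (50%, against 17.3% of all protein-coding genes) and 2 had one inside (33.3%). *NPQ4* (AT1G44575), which encodes PSBS, had 1 summit, inside the gene. *PSBTN* (AT3G21055) had 1 inside, 1 upstream and 1 3′. AT1G76570 and the light-induced *ELIP1* (AT3G22840) had only an upstream summit, and the score of 39.4 at *ELIP1* was the highest of that list. The genes of the regulators GLK1 (*GPRI1*, AT2G20570) and GLK2 (AT5G44190), which activate many of the antenna and photosystem genes, had 1 and 3 summits inside. The highest score at *GPRI1*, 57.1, lay outside the gene, which had 1 summit upstream and 1 3′. The highest inside *GLK2* was 34.1. Differences between the lists were not tested.

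**Figure D4:**
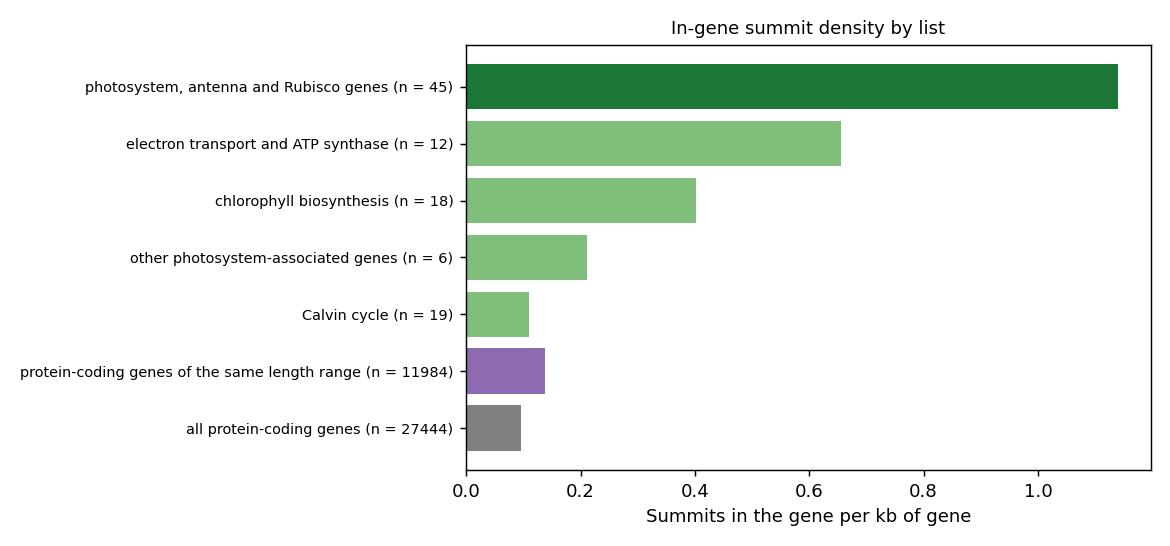
Summits inside the gene per kb of gene (x axis) for the 45 genes, for lists of other photosynthesis genes, for protein-coding genes within the same range of lengths and for all protein-coding genes (y axis, with the number of genes). The 45 genes held 1.14 summits per kb and the Calvin cycle genes 0.111.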

How the data were processed

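Anti-FLAG ChIP-seq was performed on 1 MBD9-3xFLAG and 1 wild-type library. The authors aligned reads to TAIR10 without organelles with Bowtie, retained unique reads, removed duplicates with SAMtools, and called peaks with MACS2 2.1.1 at a q value of 0.01 with the wild-type library as control. An extension size of 200 bp is stated for their H2A.Z peaks, and MBD9 peaks are said only to have been called similarly. The deposited score of each summit is -log10 of the q value. Peak widths and read counts were not used here.

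Summits were converted to 1-based coordinates and assigned to RefSeq TAIR10.1 genes by position, and every summit lay within its chromosomes. A summit near several genes counts for each. Exons were those of the transcript with the longest coding sequence. Uniqueness of 50-mers was determined over both strands of the nuclear genome, without mismatches, so mapping with mismatches can be less unique than stated. Coding sequences were aligned globally with Biopython 1.88. The 45 genes, the pathway lists, the 7 motifs and the alternatives were chosen with earlier results of these data known. All 45 genes were named, and from each list the genes with most summits inside and with the highest score. *RCA*, *FED A* and AT1G76570 were added after their values were seen. The assignment was tested on simulated data, in which all 200 summits planted at 200 genes were returned. Positions were planted gene by gene with the same region limits that the assignment uses. An error in those limits or at overlapping genes could therefore not show. Analyses used Python 3.11.15, NumPy 2.4.6, SciPy 1.17.1 and Matplotlib 3.10.9.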

Additional observations from a re-analysis of the deposited data

How the results depend on the processing

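No paired analysis was possible because only 1 library was made per group. Of 41 alternatives, 32 left the result within 1.5 times its count or within its counting interval. However, some of the 32 could not have moved, so this tally overstates how stable the results are. Comparison with genes of the same length range changed only the comparison genes, and the value of the 45 genes stayed the same by construction for every result. The limit of 90% uniqueness kept all 45 genes for the 3′ count, which therefore could not change either. With only the summits at or above the median score of the list, 4 genes had an upstream summit (8.89%, against 10.1% of all protein-coding genes). A summit inside was found at 21 (46.7%, against 6.74%), a 3′ summit at 2 (4.44%, against 3.87%) and at least 2 inside at 7 (15.6%, against 1.38%). The density was 0.459 per kb, against 0.0367 over all protein-coding genes. With 1 summit per peak, 12 genes had at least 2 inside (26.7%, against 2.18%) and the density was 0.744 per kb, against 0.0617. Without summits inside another protein-coding gene, 4 genes had a 3′ summit (8.89%, against 5.65%). The 3′ part of the gene, when widened to start at the gene's midpoint, held 47.2% of the summits inside, by construction more than the shorter part, against 40.1% over all protein-coding genes. The share of genes with a summit inside exceeded that of the comparison genes in all 6 alternatives (46.7% to 82.4%). The genes were chosen after many summits inside them had been seen, so this is no independent check. The share with an upstream summit exceeded that of the comparison genes in 3 of 8. The list holds no summit weaker than the q value limit, and the depth of neither library is known.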
